A study of Homo sapiens with 8 samples.

Results

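The genes described here are 52 genes of amino acid stress and of the transcription factor ATF4, followed across 8 RNA libraries of K562 cells in which the transcription factor IRF2 was repressed with either of a pair of guides. The genes were named from a list and were not picked by a threshold on a difference. The list covers 7 stress transcription factors, 5 stress effectors, 5 eIF2 kinases and translation regulators, 8 amino acid transporters, 6 enzymes of serine and one-carbon synthesis, 7 other amino acid enzymes, 10 genes of tRNA charging and export, and 4 endoplasmic reticulum stress genes. It was drawn up with earlier results of the same libraries known, so a count over the list is a description and no independent evidence of a direction. Of the 35805 genes listed in the data, 14665 were tested, those whose deposited log2 values averaged 0 or more. The 52 names matched 53 entries, because CBS is listed at 2 places of chromosome 21, and 52 of these entries, for 51 genes, were tested.

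Each of the 4 groups has 2 libraries, and all 4 carry dCas9-KRAB, a Cas9 that binds DNA without cutting it and brings a repressor domain to the site. Cells had the guide sg1-IRF2, the guide sg2-IRF2, the control guide sgAAVS1, which targets the AAVS1 site, or no guide (untransduced), and RNA of cells with a guide was taken 7 days after transduction. K562 is a chronic myeloid leukaemia line, so each value describes 1 line. Whether the 2 libraries of a group are separate cultures is not in the labels, and p-values then measure only the spread between these libraries, which may be technical. Untransduced cells differ from sgAAVS1 cells in transduction and in carrying a guide, which cannot be told apart. In bulk RNA, fewer cells of a kind and less RNA per cell cannot be told apart either.

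Libraries held 5248359 to 6738348 reads on listed genes. All 11 erythroid and K562 marker genes had at least 10 reads in every library, with sums of 7534 to 8903 reads. MS4A1 (B cells) had 0 reads in every library, and CD3E (T cells), CD14 and CSF1R (monocytes) and CDH1 (epithelium) had at most 4. Sums over the lymphoid list (4 genes) were 262 and 275 reads with sg1-IRF2, 274 and 277 with sg2-IRF2, 230 and 272 with sgAAVS1, and 276 and 293 in untransduced cells, most of them from CD3D. The monocyte list (3 genes) summed to 290 to 388 reads and the adherent cell list (4 genes) to 622 to 863, and the part of any of these lists in the results was not tested. As chi-square divided by its degrees of freedom, the replicates of a group differed by 0.788 with sg1-IRF2, 0.671 with sg2-IRF2, 1.64 with sgAAVS1 and 0.828 in untransduced cells. The 2 sgAAVS1 libraries thus lay farther apart than any other pair. Only the sgAAVS1 value was above what read counting alone would give. By this measure the replicates of the other groups showed no spread beyond counting. IRF2 had 4 and 8 reads with sg1-IRF2, 22 and 21 with sg2-IRF2, 196 and 291 with sgAAVS1, and 271 and 268 in untransduced cells. The log2 difference of IRF2 from sgAAVS1 was -5.43 with sg1-IRF2 and -3.55 with sg2-IRF2, and sg1-IRF2 lay below sg2-IRF2 by a log2 difference of -1.88 (limma, adjusted p = 1.0e-04).

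As background, cells answer lack of amino acids, haem shortage, unfolded protein in the endoplasmic reticulum and double-stranded RNA with kinases that phosphorylate the translation factor eIF2. Translation as a whole then slows, while the ATF4 mRNA is translated more, so ATF4 protein can change with no change in ATF4 mRNA. ATF4, with partners of the C/EBP family, raises genes that import amino acids, make serine, glycine, asparagine and proline, charge tRNAs and control the stress response itself. RNA libraries do not measure eIF2 phosphorylation or ATF4 protein.

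Because ATF4 acts through short promoter elements, the 250 bases before the start of each gene were searched in the RefSeq promoter table (build GRCh38.p14), in which 41 of the 52 genes were found, 7 of them under a newer symbol. The element that ATF4 binds with C/EBP partners, TGATGNAA on either strand, was present in 6 of the 41 (14.6%) and in 870 of 27305 promoters in all (3.19%). The form TGATGCAA was present in 4 of the 41 (9.76%), against 0.82% of all promoters. These promoters are richer in G and C (median 65.2%) than all promoters (median 58%), and the shares were not tested. Only 10 of the 41 have no exon of the GENCODE annotation in these 250 bases. All 250 bases lie in such exons for CHAC1, 134 for ASNS, 94 for HERPUD1, 80 for AARS, 73 for ATF3 and 59 for IARS. A match can therefore lie in transcribed sequence. The CHAC1, ASNS and IARS matches lie within those genes as listed, so they cannot be taken as sequence upstream of the gene. The ATF3, AARS and HERPUD1 matches lie outside their own genes as listed. The windows that hold the element are printed 5′ to 3′ on the strand of the gene, with the match in capitals. The match reads TTNCATCA where the element lies on the other strand.
ATF3 (chr1:212565205-212565234, plus strand): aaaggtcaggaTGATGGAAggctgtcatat
CHAC1 (chr15:40953251-40953280, plus strand): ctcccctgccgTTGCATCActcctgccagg
ASNS (chr7:97872458-97872487, minus strand): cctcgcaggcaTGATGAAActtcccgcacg
AARS (chr16:70289675-70289704, minus strand): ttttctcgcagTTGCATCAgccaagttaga
IARS (chr9:92293698-92293721, minus strand): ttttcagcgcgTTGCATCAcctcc
HERPUD1 (chr16:56931955-56931984, plus strand): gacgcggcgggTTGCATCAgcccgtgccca

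The endoplasmic reticulum stress element, CCAAT and CCACG with any 9 bases between them on either strand, which binds ATF6 with NF-Y, was present in HSPA5 and XBP1, 2 of the 41 (4.88%), against 22 of all promoters (0.0806%). The core of the element bound by interferon regulatory factors, GAAA and GAAA with any 2 bases between them on either strand, was present in 1 of the 41 (2.44%), against 839 of all promoters (3.07%). That 1 was ATF5, with 2 overlapping matches printed as 1 run of capitals. All 250 bases searched for ATF5 lie in exons of the GENCODE annotation, against 165 for XBP1 and 0 for HSPA5. The ATF5 match also lies within the ATF5 gene as listed, so it cannot be taken as sequence upstream of the gene.
HSPA5 (chr9:125241386-125241414, minus strand): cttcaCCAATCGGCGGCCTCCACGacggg
XBP1 (chr22:28800598-28800626, minus strand): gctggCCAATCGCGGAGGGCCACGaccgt
ATF5 (chr19:49928808-49928837, plus strand): aagcaagGAAAGGGAAAGAGAAAtgaactg

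SLC7A5, SLC7A1 and PSAT1 are shown whole because they were called in 5 of the 8 comparisons below and no GENCODE release 29 exon lies in their 250 bases. None of the elements searched has a match in them, which says only that these letters are not in this window.
SLC7A5 (chr16:87869508-87869757, minus strand): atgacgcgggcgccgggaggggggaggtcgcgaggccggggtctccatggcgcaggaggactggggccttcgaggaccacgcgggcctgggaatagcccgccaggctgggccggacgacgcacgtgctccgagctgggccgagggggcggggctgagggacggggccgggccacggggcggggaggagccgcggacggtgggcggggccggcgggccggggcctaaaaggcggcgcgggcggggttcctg
SLC7A1 (chr13:29595689-29595938, minus strand): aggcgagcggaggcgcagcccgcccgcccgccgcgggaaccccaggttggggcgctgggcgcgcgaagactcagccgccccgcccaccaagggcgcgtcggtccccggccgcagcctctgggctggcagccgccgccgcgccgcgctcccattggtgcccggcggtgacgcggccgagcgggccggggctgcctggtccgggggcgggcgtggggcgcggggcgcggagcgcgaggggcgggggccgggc
PSAT1 (chr9:78296875-78297124, plus strand): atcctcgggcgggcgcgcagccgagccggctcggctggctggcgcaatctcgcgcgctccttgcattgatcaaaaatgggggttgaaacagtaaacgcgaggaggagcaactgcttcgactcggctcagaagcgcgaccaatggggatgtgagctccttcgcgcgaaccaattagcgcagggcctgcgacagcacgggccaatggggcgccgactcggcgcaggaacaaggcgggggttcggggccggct

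The 2 IRF2 guides differed in these genes. With sg1-IRF2, 5 transporters, the serine and one-carbon enzymes PHGDH, PSAT1 and ALDH1L2, ATF5 and CHAC1 were among the members higher than with sg2-IRF2, and DNAJB9 was lower. Several of these, such as SLC7A5 and SLC7A1, were also higher with sgAAVS1 than in untransduced cells, while EIF2AK3, PPP1R15A and ATF3 were lower there. ATF4 mRNA, the tRNA synthetases and the endoplasmic reticulum chaperone HSPA5 were called in none of the comparisons on aligned values, though ATF4 and 7 genes of tRNA charging and export were called between the guides without alignment. Values are given as aligned log2, the deposited log2 value after the library medians over the tested genes were set to a common 5.61, and differences are log2 differences with the standard error of the limma fit.

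Each comparison was fitted over all tested genes in 1 model of the 8 libraries, and a gene was called at a Benjamini-Hochberg adjusted p under 0.05. The 8 comparisons are contrasts of the same 4 group means and share libraries. In sg1-IRF2 against sg2-IRF2, 14 of the 52 entries were higher and 1 was lower, where 1.58% of all tested genes were called (0.586% higher and 0.989% lower). Without sg2-IRF2 replicate 1 or 2 the count was 8 or 9. The median difference of the 52 entries was 0.09 and that of all tested genes 0.00. In sg2-IRF2 against sgAAVS1, 3 entries were higher and 11 lower (3.41% of all tested genes called, 1.79% higher and 1.62% lower), with a median of -0.05. Without sg2-IRF2 replicate 1 or 2 the count was 4 or 2. In sg1-IRF2 against sgAAVS1, limma called 0 entries (0.791% of all tested genes, 0.559% as lower), 11 had an unadjusted p under 0.05, and voom on the reads also called 0. With both guides averaged against sgAAVS1, only STC2 was called, as lower (1.42% of all tested genes called, 0.846% as lower), and without sgAAVS1 replicate 1 the count was 5.

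Against untransduced cells, 16 entries were higher and 3 lower with sg1-IRF2 (5.34% of all tested genes called, 2.4% higher and 2.94% lower), and only ATF3 was called with sg2-IRF2, as lower (0.798%, with 0.655% as lower). The count with sg1-IRF2 was 9 without untransduced replicate 1 and 12 without sg1-IRF2 replicate 1 or without replicate 2. In sgAAVS1 against untransduced cells 7 entries were higher and 3 lower (4.42% of all tested genes called, 2.06% higher and 2.36% lower), and with both IRF2 guides averaged against untransduced cells 5 were higher and 2 lower (2.52%, 0.955% higher and 1.56% lower). Without untransduced replicate 1, or without replicate 2, these counts were 4 and 2, without sgAAVS1 replicate 1 they were 17 and 13, and without sgAAVS1 replicate 2 they were 20 and 12. Over the 8 comparisons there were 67 calls, in 21 entries. The differences of the 31 entries called in none ran from -0.27 (NUPR1) to 0.55 (the second CBS entry). A fit without the mean-variance trend lost 64 of them and kept ATF3, ATF5 and PSAT1 in sg1-IRF2 against untransduced cells. In fits that leave out 1 library, 21 of the 67 calls held in every fit: 7 of 15 in sg1-IRF2 against sg2-IRF2, 9 of 19 in sg1-IRF2 against untransduced, 1 of 14 in sg2-IRF2 against sgAAVS1, 2 of 10 in sgAAVS1 against untransduced, 2 of 7 for both guides against untransduced, and 0 of 1 in each of the comparisons with 1 call. In such a fit the lone library of its group was assumed to vary like the other groups.

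**Figure D1:**
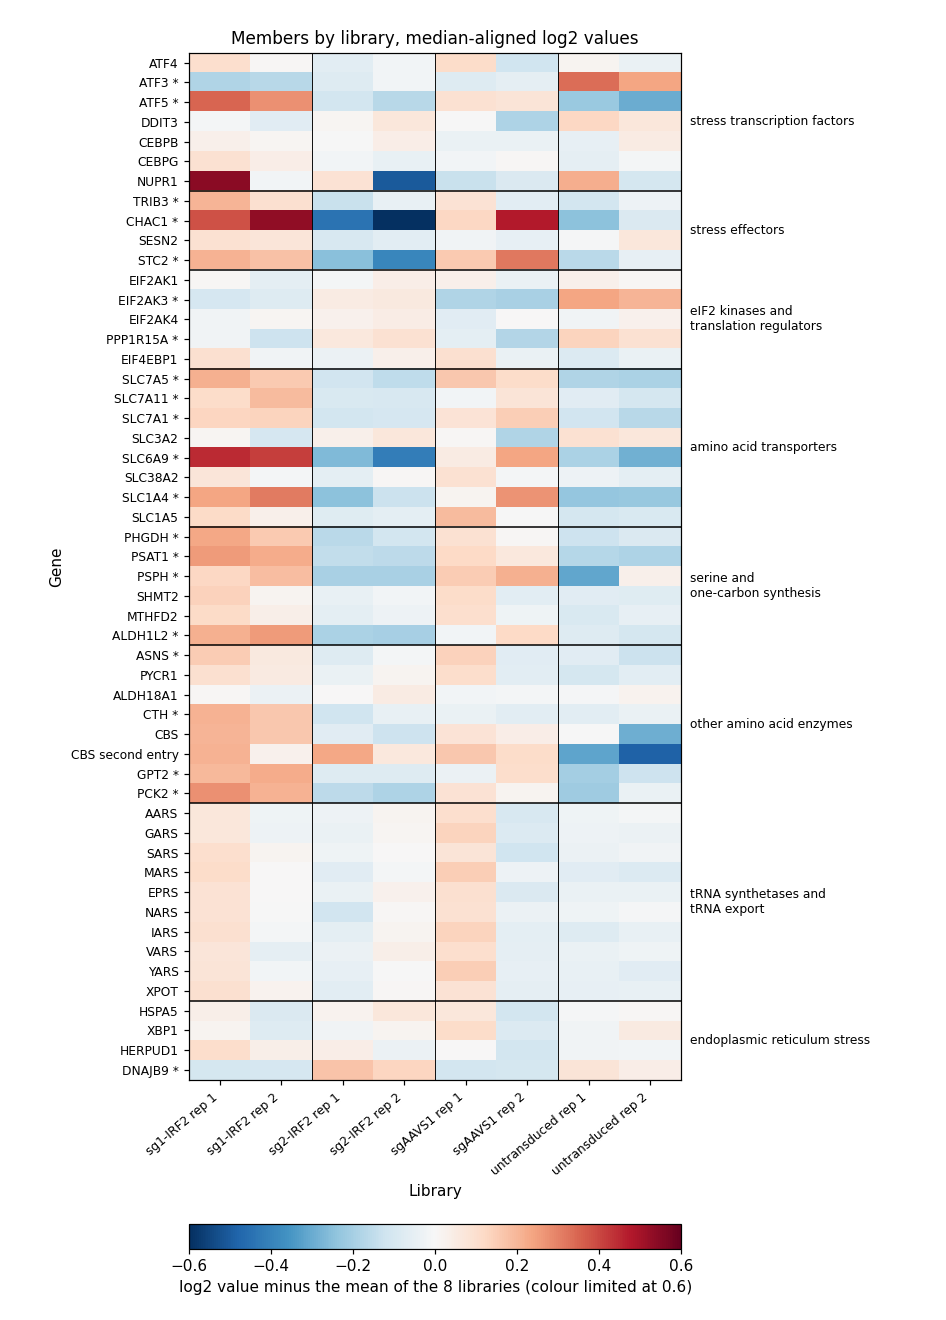
Heat map of the tested entries (rows, in blocks by role, with an asterisk at those called in any comparison) in the 8 libraries (columns); colour is the aligned log2 value minus the mean of the 8 libraries, limited at 0.6. Transporters and serine synthesis genes such as SLC6A9 and PSAT1 are high in sg1-IRF2 libraries and low in both sg2-IRF2 and untransduced libraries. The synthetase rows are high in the first sgAAVS1 library and low in the second.

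The scale between libraries bears on these splits. Without the alignment of medians, the median difference of all tested genes in sg1-IRF2 against sg2-IRF2 was 0.11, and relative to the aligned values every gene moved up by about that much. In that scale 33 entries were higher and 0 lower, while over all tested genes 1859 were higher and 93 lower, against 86 higher and 145 lower after alignment. In sg2-IRF2 against sgAAVS1 the same scale gave 0 higher and 17 lower entries (154 higher and 1042 lower of all tested genes, against 263 and 237 after alignment). In sg1-IRF2 against untransduced it gave 25 higher and 2 lower entries. After quantile normalization the entries were 15 higher and 1 lower in sg1-IRF2 against sg2-IRF2, and 3 higher and 13 lower in sg2-IRF2 against sgAAVS1.

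Among the 8 amino acid transporters, 5 were higher with sg1-IRF2 than with sg2-IRF2 and 4 were lower with sg2-IRF2 than with sgAAVS1. These were importers of large neutral, cationic, small neutral and glycine substrates and the cystine-glutamate exchanger. SLC7A5, the light chain of the LAT1 exchanger for large neutral amino acids, had aligned log2 values of 8.25 and 8.19 with sg1-IRF2, 7.92 and 7.88 with sg2-IRF2, 8.19 and 8.14 with sgAAVS1, and 7.85 and 7.84 in untransduced cells. The sg1-IRF2 and sgAAVS1 libraries overlapped, and all 4 lay above the sg2-IRF2 and untransduced libraries. The difference was 0.32 ± 0.04 in sg1-IRF2 against sg2-IRF2 (limma adjusted p = 5.4e-04), -0.27 ± 0.04 in sg2-IRF2 against sgAAVS1 (adjusted p = 0.00122), 0.37 ± 0.04 in sg1-IRF2 against untransduced (adjusted p = 2.9e-05) and 0.32 ± 0.04 in sgAAVS1 against untransduced (adjusted p = 3.4e-04). With both guides averaged it was 0.21 ± 0.04 against untransduced (adjusted p = 0.00376). SLC7A5 calls were lost in sg2-IRF2 against sgAAVS1 without sg2-IRF2 replicate 2 (adjusted p = 0.0541), and for both guides against untransduced without untransduced replicate 1 (0.102) or 2 (0.137).

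SLC7A1, the cationic amino acid transporter that carries arginine and lysine, had aligned log2 values of 8.02 and 8.03 with sg1-IRF2, 7.78 and 7.79 with sg2-IRF2, 7.98 and 8.04 with sgAAVS1, and 7.78 and 7.73 in untransduced cells. Again the sg1-IRF2 and sgAAVS1 libraries overlapped above the other 4. The difference was 0.24 ± 0.04 in sg1-IRF2 against sg2-IRF2 (limma adjusted p = 0.00800), -0.22 ± 0.04 in sg2-IRF2 against sgAAVS1 (0.00746), 0.27 ± 0.04 in sg1-IRF2 against untransduced (9.4e-04), 0.25 ± 0.04 in sgAAVS1 against untransduced (0.00230) and 0.15 ± 0.04 for both guides against untransduced (0.0367). The sg1-IRF2 against sg2-IRF2 call was lost without any 1 library of either guide (adjusted p = 0.0850 to 0.129). The sg2-IRF2 against sgAAVS1 call was lost without sg2-IRF2 replicate 1 (0.0989) or 2 (0.105) and with only those groups fitted (0.0521), and that of sgAAVS1 against untransduced without untransduced replicate 2 (0.0833). That of both guides against untransduced was lost without any 1 library of these 3 groups (0.103 to 0.431).

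SLC6A9, the glycine transporter GlyT1, which supplies glycine for haem synthesis in erythroid cells, had 5.51 and 5.48 with sg1-IRF2, 4.80 and 4.65 with sg2-IRF2, 5.12 and 5.30 with sgAAVS1, and 4.87 and 4.78 in untransduced cells. The sg1-IRF2 libraries were highest, the sgAAVS1 libraries came next, and the sg2-IRF2 and untransduced libraries overlapped below them. The difference was 0.77 ± 0.09 in sg1-IRF2 against sg2-IRF2 (limma adjusted p = 1.7e-04), a fold of 1.71. It was 0.67 ± 0.09 in sg1-IRF2 against untransduced (1.3e-04), -0.48 ± 0.09 in sg2-IRF2 against sgAAVS1 (0.00442) and 0.38 ± 0.09 in sgAAVS1 against untransduced (0.0202). The sg2-IRF2 against sgAAVS1 call was lost without sg2-IRF2 replicate 2 (adjusted p = 0.120). That of sgAAVS1 against untransduced was lost without untransduced replicate 1 (0.0870) or 2 (0.190), without sgAAVS1 replicate 2 (0.0751) and with only those groups fitted (0.0616). CCDC24 lies opposite 7.83% of SLC6A9 exons.

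SLC1A4, a transporter of alanine, serine, cysteine and threonine, had 6.73 and 6.80 with sg1-IRF2, 6.24 and 6.36 with sg2-IRF2, 6.50 and 6.75 with sgAAVS1, and 6.26 and 6.26 in untransduced cells. The 2 sgAAVS1 libraries were 0.25 apart, more than any other pair of this gene. The difference was 0.46 ± 0.07 in sg1-IRF2 against sg2-IRF2 (limma adjusted p = 0.00124), 0.50 ± 0.07 in sg1-IRF2 against untransduced (1.6e-04), -0.33 ± 0.07 in sg2-IRF2 against sgAAVS1 (0.0107), 0.37 ± 0.07 in sgAAVS1 against untransduced (0.00405) and 0.27 ± 0.06 for both guides against untransduced (0.0165). The sg1-IRF2 against sg2-IRF2 call was lost without sg2-IRF2 replicate 1 (adjusted p = 0.0579). That of sg2-IRF2 against sgAAVS1 was lost without sg2-IRF2 replicate 1 (0.181) or sgAAVS1 replicate 2 (0.0520), and that of sgAAVS1 against untransduced without untransduced replicate 1 (0.0741) or 2 (0.0817). The call of both guides against untransduced was lost without untransduced replicate 1 (0.200) or 2 (0.245), sg1-IRF2 replicate 2 (0.0687) or sg2-IRF2 replicate 2 (0.0952).

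SLC7A11, the xCT subunit that imports cystine, had 7.69 and 7.77 with sg1-IRF2, 7.49 and 7.49 with sg2-IRF2, 7.57 and 7.66 with sgAAVS1, and 7.52 and 7.48 in untransduced cells. The difference was 0.24 ± 0.05 in sg1-IRF2 against sg2-IRF2 (limma adjusted p = 0.0122) and 0.24 ± 0.05 in sg1-IRF2 against untransduced (0.00624). The guide difference was lost without sg1-IRF2 replicate 2 (adjusted p = 0.221) or sg2-IRF2 replicate 1 (0.133) or 2 (0.201), and the other without untransduced replicate 1 (0.0601) or 2 (0.115) or sg1-IRF2 replicate 2 (0.115). SLC3A2, the heavy chain that both SLC7A5 and SLC7A11 need at the membrane, was called nowhere, with a difference of -0.09 ± 0.06 in sg1-IRF2 against sg2-IRF2 (95% interval -0.21 to 0.02). The glutamine transporters SLC38A2 and SLC1A5 were not called by limma in any comparison, with SLC1A5 nearest in sgAAVS1 against untransduced (0.19, adjusted p = 0.0513; called by voom).

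In the 6 genes of serine and one-carbon synthesis, the 3 steps from glycolysis to serine and the mitochondrial folate enzyme ALDH1L2 moved, and SHMT2 and MTHFD2 were called nowhere. PSAT1, the aminotransferase of serine synthesis, had 6.84 and 6.80 with sg1-IRF2, 6.43 and 6.42 with sg2-IRF2, 6.70 and 6.64 with sgAAVS1, and 6.41 and 6.39 in untransduced cells. The libraries of each guide group did not overlap those of another, and the sg2-IRF2 libraries lay just above the untransduced ones. The difference was 0.39 ± 0.05 in sg1-IRF2 against sg2-IRF2 (limma adjusted p = 3.5e-04), 0.42 ± 0.05 in sg1-IRF2 against untransduced (4.5e-05), -0.25 ± 0.05 in sg2-IRF2 against sgAAVS1 (0.0107), 0.27 ± 0.05 in sgAAVS1 against untransduced (0.00476) and 0.22 ± 0.05 for both guides against untransduced (0.00915). The sg2-IRF2 against sgAAVS1 call was lost without sg2-IRF2 replicate 1 (adjusted p = 0.0974) or 2 (0.141) and with only those groups fitted (0.0543). Without untransduced replicate 1 or 2, that of sgAAVS1 against untransduced was lost (0.0592 and 0.0833), as was that of both guides against untransduced (0.125 and 0.184).

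PHGDH, the dehydrogenase of the first step, had 6.96 and 6.89 with sg1-IRF2, 6.57 and 6.62 with sg2-IRF2, 6.82 and 6.74 with sgAAVS1, and 6.61 and 6.65 in untransduced cells. The difference was 0.33 ± 0.05 in sg1-IRF2 against sg2-IRF2 (limma adjusted p = 0.00237) and 0.30 ± 0.05 in sg1-IRF2 against untransduced (0.00206), and the sg2-IRF2 against sgAAVS1 difference of -0.18 ± 0.05 was not called (0.0664). The guide difference was lost without sg1-IRF2 replicate 1 (adjusted p = 0.0668) or sg2-IRF2 replicate 1 (0.0756), and the other without untransduced replicate 1 (0.0552) or sg1-IRF2 replicate 1 (0.0565). PSPH, the phosphatase that releases serine, had 5.19 and 5.25 with sg1-IRF2, 4.87 and 4.87 with sg2-IRF2, 5.22 and 5.28 with sgAAVS1, and 4.75 and 5.10 in untransduced cells. It was called only in sg2-IRF2 against sgAAVS1, with -0.38 ± 0.10 (adjusted p = 0.0404). That call was lost without sgAAVS1 replicate 2 (0.0552), without any 1 library of either guide (0.0559 to 0.251) and with array weights (0.0659).

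ALDH1L2, which oxidizes formyl-tetrahydrofolate in mitochondria, had 6.74 and 6.78 with sg1-IRF2, 6.34 and 6.33 with sg2-IRF2, 6.51 and 6.65 with sgAAVS1, and 6.45 and 6.42 in untransduced cells. The sg1-IRF2 libraries were the highest and the sg2-IRF2 libraries the lowest. The difference was 0.43 ± 0.06 in sg1-IRF2 against sg2-IRF2 (limma adjusted p = 3.5e-04), 0.33 ± 0.06 in sg1-IRF2 against untransduced (0.00163) and -0.25 ± 0.06 in sg2-IRF2 against sgAAVS1 (0.0168). The last of these was lost without sgAAVS1 replicate 2 (adjusted p = 0.0711), without sg2-IRF2 replicate 1 (0.129) or 2 (0.176) and with only those groups fitted (0.0733). For SHMT2, the mitochondrial serine hydroxymethyltransferase, the guide difference was 0.11 (95% interval -0.01 to 0.23), and for MTHFD2, the mitochondrial folate dehydrogenase beside it in the pathway, 0.12 (0.02 to 0.22), neither called. SLC4A5 lies opposite 27.2% of MTHFD2 exons.

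Of the other amino acid enzymes, PCK2 and CTH were higher with sg1-IRF2 than with sg2-IRF2, and PCK2, GPT2, CTH and ASNS were higher with sg1-IRF2 than in untransduced cells. PCK2, the mitochondrial phosphoenolpyruvate carboxykinase, had 6.82 and 6.75 with sg1-IRF2, 6.38 and 6.36 with sg2-IRF2, 6.63 and 6.56 with sgAAVS1, and 6.33 and 6.50 in untransduced cells. Its sg2-IRF2 libraries lay between the 2 untransduced ones. The difference was 0.41 ± 0.06 in sg1-IRF2 against sg2-IRF2 (limma adjusted p = 9.5e-04), 0.37 ± 0.06 in sg1-IRF2 against untransduced (9.8e-04) and -0.22 ± 0.06 in sg2-IRF2 against sgAAVS1 (0.0473). The sg1-IRF2 against untransduced call was lost without untransduced replicate 1 (adjusted p = 0.0521). That of sg2-IRF2 against sgAAVS1 was lost without sgAAVS1 replicate 1 (0.0711), untransduced replicate 2 (0.05, rounded, no longer under the threshold), or any 1 library of either guide (0.0660 to 0.320), with array weights (0.0701), by voom (0.0516) and with only those groups fitted (0.0902).

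CTH, which makes cysteine from cystathionine, had 6.16 and 6.11 with sg1-IRF2, 5.83 and 5.90 with sg2-IRF2, 5.91 and 5.89 with sgAAVS1, and 5.88 and 5.91 in untransduced cells, so its sgAAVS1 libraries did not lie with the sg1-IRF2 ones. The difference was 0.27 ± 0.06 in sg1-IRF2 against sg2-IRF2 (limma adjusted p = 0.0318), 0.24 ± 0.06 in sg1-IRF2 against untransduced (0.0273) and 0.24 ± 0.06 in sg1-IRF2 against sgAAVS1, which was not called (0.119). The guide difference was lost without any 1 library of either guide or of untransduced cells (adjusted p = 0.0639 to 0.311), and the other without any 1 sg1-IRF2 or untransduced library (0.108 to 0.230). GPT2, the mitochondrial alanine aminotransferase, differed by 0.37 ± 0.07 in sg1-IRF2 against untransduced (0.00373), lost without untransduced replicate 1 (0.0754) or sg1-IRF2 replicate 2 (0.0517), and by 0.28 ± 0.07 in sg1-IRF2 against sg2-IRF2, not called by limma (0.0508) and called by voom. ASNS, the asparagine synthetase and a standard ATF4 target, differed by 0.20 ± 0.06 in sg1-IRF2 against untransduced (0.0492), which was lost without any 1 library of either guide or of untransduced cells (0.0784 to 0.366). In sg1-IRF2 against sg2-IRF2 the ASNS difference was 0.15 (95% interval 0.03 to 0.27, adjusted p = 0.250), and AC079781.5 shares 44.6% of ASNS exons on the same strand.

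The proline synthesis genes PYCR1 and ALDH18A1 and both CBS entries were called nowhere. CBS, the cystathionine synthase, had 151 and 167 reads with sg1-IRF2, 142 and 128 with sg2-IRF2, 127 and 161 with sgAAVS1, and 145 and 120 in untransduced cells at chr21:43053191-43076943 (hg38, minus strand). The second CBS entry lies at chr21:6444869-6468040, where GENCODE release 29 places CBSL, and had 18 to 30 reads a library, the lowest mean log2 among the tested members. These 2 genes are nearly identical, so the division of reads between them is uncertain.

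Among 7 stress transcription factors, ATF5 and ATF3 changed, in different directions, and ATF4, DDIT3, CEBPB, CEBPG and NUPR1 were called nowhere. ATF4, the regulator itself (chr22:39519695-39522685, hg38, plus strand), had aligned log2 values of 7.52 and 7.42 with sg1-IRF2, 7.36 and 7.40 with sg2-IRF2, 7.53 and 7.30 with sgAAVS1, and 7.43 and 7.38 in untransduced cells. Libraries of the 4 groups overlapped, and the sgAAVS1 pair held both the highest and the lowest value. The difference was 0.09 ± 0.06 in sg1-IRF2 against sg2-IRF2 (95% interval -0.04 to 0.22, limma adjusted p = 0.552), and 0.20 in the scale without alignment, where it was called (adjusted p = 0.0222). Against sgAAVS1 it was 0.06 ± 0.06 with sg1-IRF2 (-0.07 to 0.18) and -0.04 ± 0.06 with sg2-IRF2 (-0.16 to 0.09).

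ATF5, a relative of ATF4 whose mRNA is translated by the same mechanism, had 6.63 and 6.55 with sg1-IRF2, 6.16 and 6.11 with sg2-IRF2, 6.37 and 6.35 with sgAAVS1, and 6.05 and 5.98 in untransduced cells. The 4 groups did not overlap and stood in that order: sg1-IRF2, sgAAVS1, sg2-IRF2, untransduced. The difference was 0.57 ± 0.06 in sg1-IRF2 against untransduced (limma adjusted p = 3.3e-06), 0.45 ± 0.06 in sg1-IRF2 against sg2-IRF2 (3.5e-04), 0.35 ± 0.05 for both guides against untransduced (3.7e-04), 0.34 ± 0.06 in sgAAVS1 against untransduced (0.00180) and -0.22 ± 0.06 in sg2-IRF2 against sgAAVS1 (0.0382). In sg1-IRF2 against sgAAVS1 it was 0.23, and in sg2-IRF2 against untransduced 0.12, neither called. The sg2-IRF2 against sgAAVS1 call was lost without any 1 library of either guide or of untransduced cells (adjusted p = 0.0560 to 0.332), with array weights (0.0655) and with only those groups fitted (0.103), and that of sgAAVS1 against untransduced without untransduced replicate 2 (0.0625). NUP62 lies opposite 21.2% of ATF5 exons, and since the strand setting of the authors' counting is not given in the sources used here, reads of such pairs cannot be told apart. The same holds for the other opposite pairs named here and for SLC7A5 with AC126696.2 (5.71% of exons), SLC7A11 with SLC7A11-AS1 (8.97%), SLC1A5 with AC008622.2 (23.4%), CEBPB with CEBPB-AS1 (11.8%), PYCR1 with AC145207.4 (15.6%), EIF2AK1 with AIMP2 (9.59%) and ALDH1L2 with C12orf45 (1.70%).

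ATF3, an early stress factor that ATF4 can raise, had 5.68 and 5.70 with sg1-IRF2, 5.79 and 5.85 with sg2-IRF2, 5.79 and 5.81 with sgAAVS1, and 6.20 and 6.10 in untransduced cells. Every library with a guide lay below both untransduced libraries, and the sg2-IRF2 and sgAAVS1 libraries overlapped. The difference from untransduced cells was -0.46 ± 0.06 with sg1-IRF2 (limma adjusted p = 1.8e-04), -0.33 ± 0.06 with sg2-IRF2 (0.0120), -0.35 ± 0.06 with sgAAVS1 (0.00334) and -0.40 ± 0.06 with both IRF2 guides averaged (2.7e-04). The sgAAVS1 call was lost without untransduced replicate 1 (adjusted p = 0.0897), and the sg2-IRF2 call without untransduced replicate 1 (0.256) or 2 (0.0668) or sg2-IRF2 replicate 1 (0.230) or 2 (0.0972). DDIT3 (CHOP), a factor of prolonged stress, lay nearest to a call in sgAAVS1 against untransduced (-0.19, adjusted p = 0.113), and MARS lies opposite 27.2% of its exons. NUPR1 had 18 to 35 reads a library and the widest interval of these factors, -0.10 to 1.04 around a guide difference of 0.47.

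Of the 5 stress effectors, CHAC1, STC2 and TRIB3 were higher with sg1-IRF2 than with sg2-IRF2. CHAC1, which degrades glutathione and is a sensitive ATF4 target, had 106 and 134 reads with sg1-IRF2, 68 and 52 with sg2-IRF2, 81 and 135 with sgAAVS1, and 76 and 86 in untransduced cells. In aligned log2 these were 4.41 and 4.56 with sg1-IRF2, 3.58 and 3.30 with sg2-IRF2, 4.15 and 4.50 with sgAAVS1, and 3.78 and 3.94 in untransduced cells, so both sg2-IRF2 libraries were the lowest of all. The difference was 1.05 ± 0.15 in sg1-IRF2 against sg2-IRF2 (limma adjusted p = 5.5e-04), a fold of 2.07, -0.89 ± 0.15 in sg2-IRF2 against sgAAVS1 (0.00121) and 0.62 ± 0.15 in sg1-IRF2 against untransduced (0.0151). The sg2-IRF2 against sgAAVS1 call was lost without sg2-IRF2 replicate 2 (adjusted p = 0.0508). That of sg1-IRF2 against untransduced was lost without untransduced replicate 1 (0.166) or 2 (0.0776), or sg1-IRF2 replicate 1 (0.0595) or 2 (0.154).

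STC2, a secreted glycoprotein induced by stress, was the 1 gene called with both IRF2 guides averaged against sgAAVS1 (-0.30 ± 0.07, limma adjusted p = 0.0257). It had 5.79 and 5.76 with sg1-IRF2, 5.34 and 5.19 with sg2-IRF2, 5.74 and 5.90 with sgAAVS1, and 5.42 and 5.54 in untransduced cells, so of the IRF2 guides sg2-IRF2 had both libraries below the sgAAVS1 ones, as untransduced cells had, and the sg1-IRF2 libraries lay within the sgAAVS1 range. The difference was -0.56 ± 0.08 in sg2-IRF2 against sgAAVS1 (adjusted p = 2.4e-04) and -0.04 ± 0.08 in sg1-IRF2 against sgAAVS1 (95% interval -0.21 to 0.12). It was 0.51 ± 0.08 in sg1-IRF2 against sg2-IRF2 (0.00130), 0.34 ± 0.08 in sgAAVS1 against untransduced (0.0150) and 0.30 ± 0.08 in sg1-IRF2 against untransduced (0.0301). The call with both guides averaged was lost without untransduced replicate 1 (adjusted p = 0.0512) or 2 (0.0529), sgAAVS1 replicate 2 (0.137), sg1-IRF2 replicate 1 (0.0730) or 2 (0.0889) or sg2-IRF2 replicate 2 (0.145), with array weights (0.0756) and with only those groups fitted (0.0517). The guide difference was lost without sg2-IRF2 replicate 2 (0.0689), that of sgAAVS1 against untransduced without untransduced replicate 1 (0.187) or 2 (0.0735), and that of sg1-IRF2 against untransduced without any 1 library of those groups (0.0946 to 0.259).

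TRIB3, a pseudokinase that restrains ATF4, had 7.52 and 7.41 with sg1-IRF2, 7.19 and 7.27 with sg2-IRF2, 7.40 and 7.26 with sgAAVS1, and 7.21 and 7.29 in untransduced cells. The difference was 0.24 ± 0.06 in sg1-IRF2 against sg2-IRF2 (limma adjusted p = 0.0388) and 0.22 ± 0.06 in sg1-IRF2 against untransduced (0.0283). The guide difference was lost without any 1 library of either guide or of untransduced cells (adjusted p = 0.0793 to 0.377), and the other without untransduced replicate 1 (0.271) or 2 (0.112) or sg1-IRF2 replicate 1 (0.310). SESN2, a leucine sensor upstream of mTORC1, was called nowhere (0.16 in sg1-IRF2 against sg2-IRF2, adjusted p = 0.105). VLDLR, a lipoprotein receptor, was not tested, with a mean deposited log2 of -1.52 and 4 and 6 reads with sg1-IRF2, 2 and 2 with sg2-IRF2, 0 and 1 with sgAAVS1, and 0 and 2 in untransduced cells. The lowest members above the limit of 0 were the second CBS entry (mean 2.17) and NUPR1 (2.27).

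**Figure D2:**
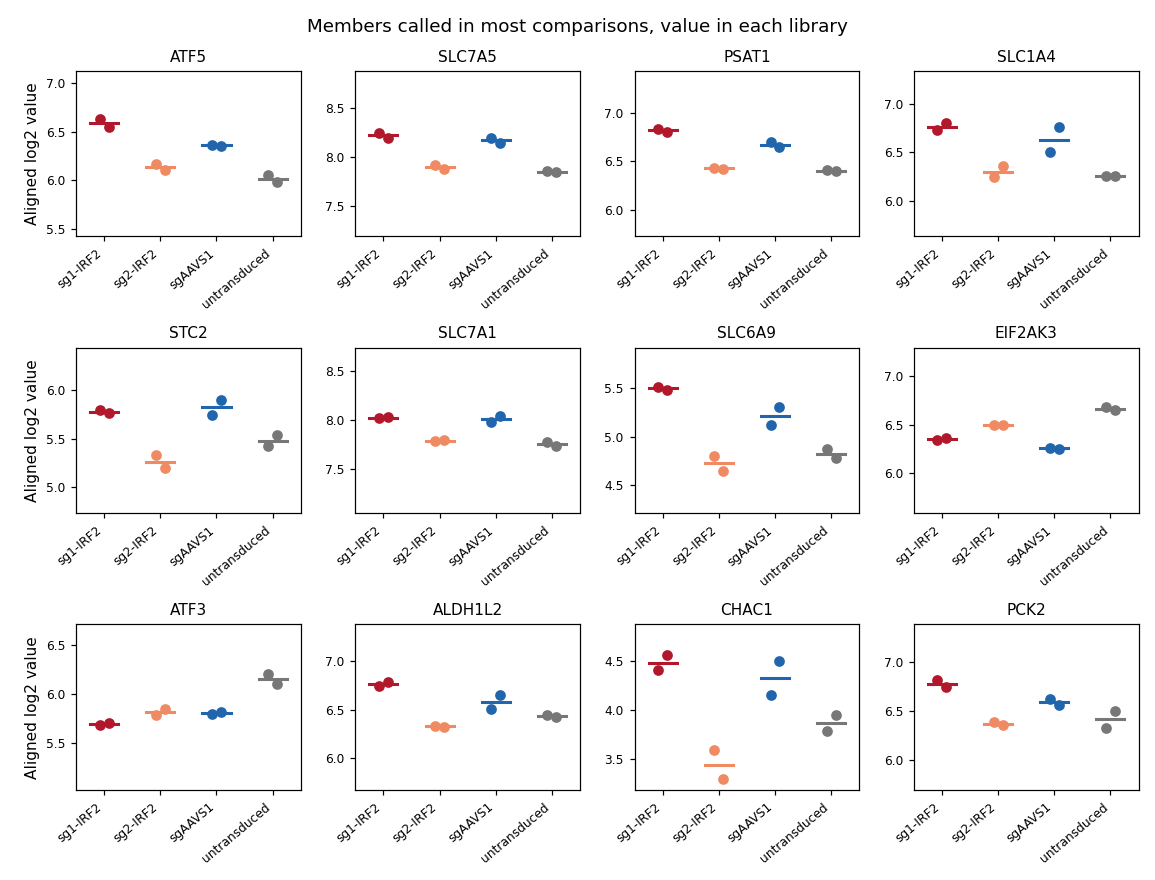
Aligned log2 value of each library (points) and group mean (bar) for the 12 members called in most comparisons, one panel a gene, with the groups sg1-IRF2, sg2-IRF2, sgAAVS1 and untransduced from left to right and an axis of the same length in every panel. In most panels the sg2-IRF2 and untransduced points are low, as for SLC7A5 (7.92 and 7.88 with sg2-IRF2, 7.85 and 7.84 untransduced), while EIF2AK3 and ATF3 are highest in untransduced cells.

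The eIF2 kinases among the members, which sense different stresses, did not move together. EIF2AK3 (PERK), the kinase of endoplasmic reticulum stress, had 6.34 and 6.36 with sg1-IRF2, 6.49 and 6.50 with sg2-IRF2, 6.26 and 6.25 with sgAAVS1, and 6.68 and 6.65 in untransduced cells. The 4 groups did not overlap and stood, from the highest, in the order untransduced, sg2-IRF2, sg1-IRF2, sgAAVS1. The difference was -0.41 ± 0.05 in sgAAVS1 against untransduced (limma adjusted p = 1.7e-04), -0.31 ± 0.05 in sg1-IRF2 against untransduced (0.00136), -0.24 ± 0.05 for both guides against untransduced (0.00546) and 0.24 ± 0.05 in sg2-IRF2 against sgAAVS1 (0.0142). The last was lost without sg2-IRF2 replicate 1 (adjusted p = 0.125) or 2 (0.163), without alignment (0.0966) and with only those groups fitted (0.0657), and that of both guides against untransduced without untransduced replicate 1 (0.138) or 2 (0.0899). AC104134.1 lies opposite 14.4% of EIF2AK3 exons.

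EIF2AK4 (GCN2), which senses uncharged tRNA, and EIF2AK1 (HRI), the haem-regulated kinase of erythroid cells, were called nowhere. In sg1-IRF2 against sg2-IRF2 the difference was -0.04 for EIF2AK4 (95% interval -0.13 to 0.06) and -0.04 for EIF2AK1 (-0.13 to 0.06), and without alignment both were 0.07 or 0.08, not called. The fourth kinase, EIF2AK2 (PKR), is an interferon-stimulated gene and no member of the list, and GPATCH11 lies opposite part of it. It had 493 and 643 reads with sg1-IRF2, 594 and 582 with sg2-IRF2, 918 and 1273 with sgAAVS1, and 1123 and 1104 in untransduced cells. It was lower than sgAAVS1 with both guides, by a difference of -0.97 ± 0.06 with sg1-IRF2 (limma adjusted p = 1.5e-09) and -0.95 ± 0.06 with sg2-IRF2 (2.1e-09), and the guides differed by -0.02 (adjusted p = 0.928).

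PPP1R15A (GADD34), the phosphatase subunit that reverses eIF2 phosphorylation, had 7.85 and 7.75 with sg1-IRF2, 7.94 and 7.97 with sg2-IRF2, 7.82 and 7.70 with sgAAVS1, and 8.01 and 7.96 in untransduced cells. The difference was -0.23 ± 0.05 in sgAAVS1 against untransduced (limma adjusted p = 0.0115), -0.18 ± 0.05 in sg1-IRF2 against untransduced (0.0377) and 0.19 ± 0.05 in sg2-IRF2 against sgAAVS1 (0.0370). That of sgAAVS1 against untransduced was lost without untransduced replicate 1 (adjusted p = 0.163) or 2 (0.0965). That of sg1-IRF2 against untransduced was lost without any 1 library of those groups or of sg2-IRF2 (0.0589 to 0.339) and without alignment (0.0976). That of sg2-IRF2 against sgAAVS1 was lost without sg2-IRF2 replicate 1 (0.168) or 2 (0.310), untransduced replicate 1 (0.0800) or 2 (0.0813) or sgAAVS1 replicate 2 (0.111), without alignment (0.132) and with only those groups fitted (0.108). EIF4EBP1, which blocks cap-dependent translation, was called nowhere.

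The 9 tRNA synthetases and the tRNA exporter XPOT, which charge and export tRNAs, were called in no comparison, by limma or by voom. In sg1-IRF2 against sg2-IRF2, 0 of the 10 had an unadjusted p under 0.05, and in sg1-IRF2 against untransduced 2 had. Over the 8 comparisons their differences ran from -0.10 (MARS, sg2-IRF2 against sgAAVS1) to 0.14 (MARS, sgAAVS1 against untransduced), with a lowest adjusted p of 0.183. Without alignment of medians, 7 of the 10 were called higher in sg1-IRF2 against sg2-IRF2, where the median of all tested genes was also shifted by 0.11. AARS had a guide difference of 0.03 (95% interval -0.09 to 0.14), and NARS 0.10 (-0.02 to 0.21).

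The 10 genes shared an order within each pair of replicates that carried a guide. The first sgAAVS1 library was above the second in 10 of the 10, by 0.13 to 0.21 with a median of 0.19, while over all 14665 tested genes 7244 were above. The first sg1-IRF2 library was above the second in 10 of 10 (0.07 to 0.13), the first sg2-IRF2 library in 0 of 10 (-0.12 to -0.03) and the first untransduced library in 3 of 10 (-0.04 to 0.03). Over all 14665 tested genes, 8398 were above with sg1-IRF2, 6113 with sg2-IRF2 and 7739 in untransduced cells. The median gaps of all tested genes were 0.02, -0.02 and 0.01 in that order. With either IRF2 guide all tested genes thus leaned the same way as the 10. The share of reads on 87 cytosolic ribosomal protein genes was 0.874% in the first sgAAVS1 library and 0.763% in the second. It was 0.838% and 0.786% with sg1-IRF2, 0.816% and 0.831% with sg2-IRF2, and 0.819% and 0.826% in untransduced cells. The share on 13 mitochondrially encoded genes was 0.217% and 0.185% with sgAAVS1 and 0.209% and 0.203% with sg1-IRF2. With sg2-IRF2 it was 0.199% and 0.196%, and in untransduced cells 0.205% and 0.183%. The part of these shares in the synthetase values was not tested. ATF4 and HSPA5 had the same order within the sgAAVS1 pair, whereas SLC1A4, CHAC1 and STC2 had the opposite one.

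Of the 4 endoplasmic reticulum stress genes only DNAJB9 was called. DNAJB9, a luminal co-chaperone and target of spliced XBP1, had 5.75 and 5.76 with sg1-IRF2, 6.03 and 5.99 with sg2-IRF2, 5.75 and 5.76 with sgAAVS1, and 5.94 and 5.90 in untransduced cells. It was the 1 member called below sg2-IRF2 with sg1-IRF2 (-0.26 ± 0.06, limma adjusted p = 0.0429), and was higher with sg2-IRF2 than with sgAAVS1 (0.26 ± 0.06, adjusted p = 0.0233). The guide difference was lost without any 1 library of either guide or of untransduced cells (adjusted p = 0.0792 to 0.328) and without alignment (0.163). The other call was lost without sg2-IRF2 replicate 1 (0.219) or 2 (0.153), without alignment (0.111) and with only those groups fitted (0.0778). THAP5 lies opposite 6.45% of DNAJB9 exons.

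HSPA5 (BiP), the main luminal chaperone, had a guide difference of -0.07 (95% interval -0.19 to 0.04), XBP1, the factor activated by IRE1 splicing, -0.03 (-0.16 to 0.10), and HERPUD1, a membrane protein of degradation, 0.06 (-0.06 to 0.19). Among 22 other endoplasmic reticulum chaperones and sensors, limma and voom each called 0 in sg1-IRF2 against sg2-IRF2, and 1 had an unadjusted p under 0.05.

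**Figure D3:**
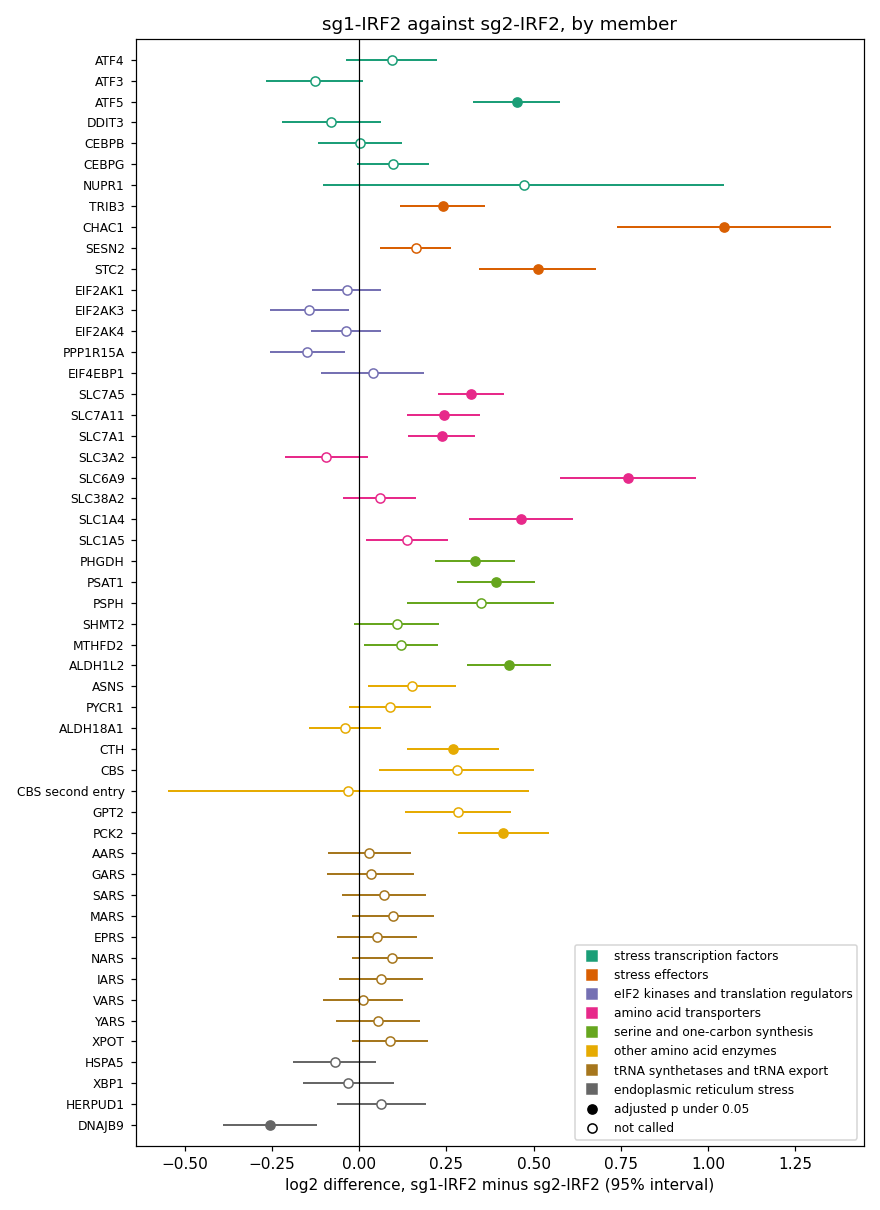
Log2 difference of each tested entry in sg1-IRF2 minus sg2-IRF2 (points, with the 95% interval of the fit as lines). Rows stand in the order of the list, by role and not by size. Points are coloured by role and filled where the adjusted p is under 0.05. CHAC1 (1.05) and SLC6A9 (0.77) have the highest differences and DNAJB9 (-0.26) the lowest, and the synthetases lie between 0.01 and 0.10 without a call.

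Other genes of the pathway, from lists drawn up beside the members, were looked at in the same fit. Of 19 other amino acid stress genes, 2 were higher and 2 lower in sg1-IRF2 against sg2-IRF2. The higher ones were SLC38A1, a glutamine transporter (0.26 ± 0.04, limma adjusted p = 0.00276), and ADM2, a secreted peptide (0.50 ± 0.10, adjusted p = 0.0181). The lower ones were KLHL24, a ubiquitin ligase adaptor (-0.22 ± 0.05, adjusted p = 0.0199), and SESN3, a sestrin of the FOXO response (-0.36 ± 0.08, adjusted p = 0.0233). SLC38A1 had 8.46 and 8.51 with sg1-IRF2, 8.21 and 8.24 with sg2-IRF2, 8.44 and 8.48 with sgAAVS1, and 8.26 and 8.25 in untransduced cells, so the sg1-IRF2 and sgAAVS1 libraries lay above the other 4, as for SLC7A5. SESN3 had 5.03 and 4.94 with sg1-IRF2, 5.36 and 5.33 with sg2-IRF2, 5.06 and 5.09 with sgAAVS1, and 5.49 and 5.47 in untransduced cells, so the untransduced libraries were the highest, as for EIF2AK3. In sgAAVS1 against untransduced, SLC38A1 and SLC7A6 were called higher and KLHL24 and SESN3 lower. In sg2-IRF2 against sgAAVS1, KLHL24 was called higher and SLC38A1 and SLC7A6 lower. In sg1-IRF2 against untransduced, SLC38A1 was called higher and KLHL24 and SESN3 lower. With both guides averaged, KLHL24 was called higher against sgAAVS1 and SESN3 lower against untransduced. For sg1-IRF2 against sgAAVS1 and sg2-IRF2 against untransduced, 0 of the 19 were called.

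Of 11 other cytosolic synthetases, WARS was higher in sg1-IRF2 than in untransduced cells (0.19 ± 0.05, adjusted p = 0.0317). Among 13 other genes of the eIF2 pathway, EIF2AK2 was the 1 called.

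Levels between genes were compared as RPKM, reads per kilobase of exon scaled to the listed reads of the library, as means of 2 libraries. ATF4 was the highest stress factor at 61.9 with sg1-IRF2, 57.7 with sg2-IRF2, 59.6 with sgAAVS1 and 59.3 in untransduced cells, and NUPR1 the lowest, at 0.909, 0.656, 0.689 and 0.782 in the same order of groups. SLC1A5 was the highest transporter (72.1 with sg1-IRF2, 65.2 with sg2-IRF2, 73.2 with sgAAVS1, 64.3 untransduced) and SLC6A9 the lowest (7.68, 4.48, 6.30 and 4.84). AARS and EPRS led the synthetases and YARS was the lowest of them in every group. CHAC1, with the largest guide difference, stood at 9.57 with sg1-IRF2, 4.63 with sg2-IRF2 and 8.62 with sgAAVS1.

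**Figure D4:**
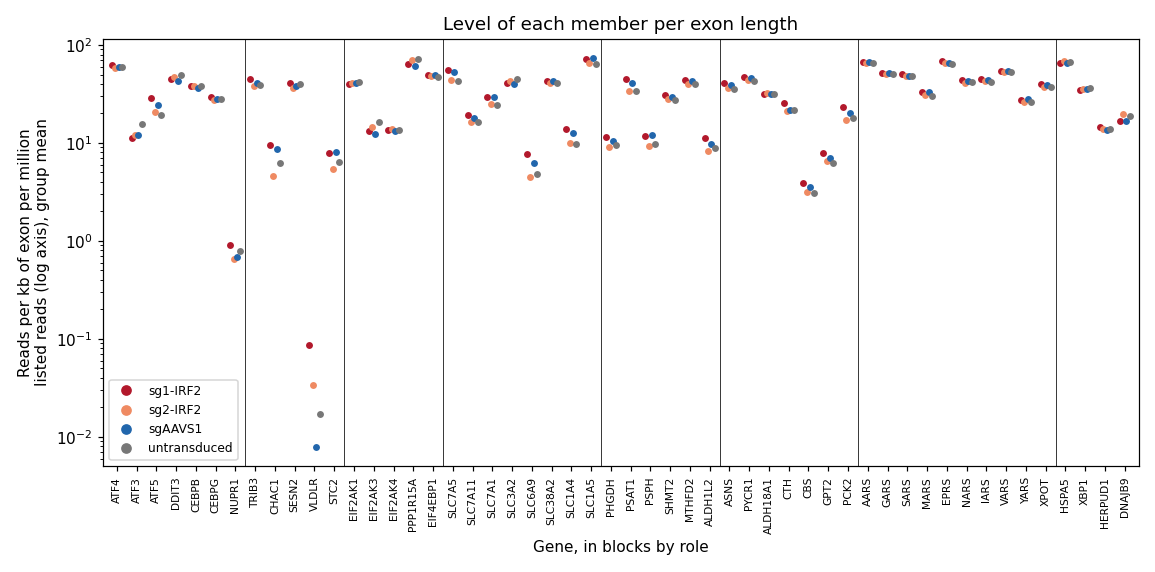
RPKM, reads per kilobase of exon scaled to the listed reads of the library (log axis), for each member, as the mean of the 2 libraries of each group (coloured points), in blocks by role. Groups differ little beside the spread between genes, from VLDLR at the bottom to SLC1A5 at 73.2 in sgAAVS1 cells.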

How the data were processed

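RNA of K562 dCas9-KRAB cells was sequenced in 8 libraries, 2 in each of 4 groups, and groups were taken from the labels. Per the labels' protocols, ribosomal RNA was removed from total RNA before a directional library kit was used. Cutadapt, Bowtie2 and hg38 are named in the submitters' processing notes. Tool versions, counting tool, strand setting and annotation release were not given in the sources used here. Values were deposited as log2, 1 per gene and library. They behave as the reads of a gene scaled by 1 number per library: above the column minimum, all were whole multiples of 1 read within 0.01 read, and a gene without reads was listed at 0.9 read. Recovered reads were used for depth, levels per length and the voom alternative. Intervals cover counting and library spread only as far as 2 libraries show it.

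Library medians over the tested genes were aligned (largest shift 0.08). Group means of all 8 libraries were fitted in limma 3.58.1 (R 4.3.3; lmFit, contrasts.fit, eBayes, trend on; 4 residual and 14.9 prior degrees of freedom), with two-sided tests and Benjamini-Hochberg adjustment over the 14665 tested genes. Members called in at least 1 comparison are named, ranked by the number of comparisons that called them, with the first 12 given in every library. Library values of 7 further called members and of ATF4, and the uncalled members named beyond ATF4, the eIF2 kinases and the ends of the range, were added after their values were seen. The fit was tested on simulated reads with counting noise only. In these, 200 genes were raised alike with both IRF2 guides, by more than most differences given here. Spread beyond counting, smaller changes and changes with 1 guide only were not simulated. Exon lengths and overlaps come from GENCODE release 29. Python 3.11.15, numpy 2.4.6, pandas 2.3.3 and matplotlib 3.10.9 were used. The members, lists and tests were chosen with earlier results of these data known. GCN1 and DELE1 were looked up under the older symbols GCN1L1 and KIAA0141. Alternatives were other scalings, filters, variance models, voom, subsets of groups, the replicate number as a block and leaving out 1 library. The result of 1 further gene list is not reported here.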

Additional observations from a re-analysis of the deposited data

Results flagged for a closer look

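In 15 members the effects of the 2 IRF2 guides, each set against the same sgAAVS1 libraries, differed by the test of the guides against each other. The members higher with sg1-IRF2 than with sg2-IRF2 were CHAC1, with a log2 difference of 1.05, SLC6A9 (0.77), STC2 (0.51), SLC1A4 (0.46), ATF5 (0.45), ALDH1L2 (0.43), PCK2 (0.41), PSAT1 (0.39), PHGDH (0.33), SLC7A5 (0.32), CTH (0.27), SLC7A1 (0.24), SLC7A11 (0.24) and TRIB3 (0.24). DNAJB9 was lower with sg1-IRF2 (-0.26). In limma the adjusted p ran from 1.7e-04 for SLC6A9 to 0.0429 for DNAJB9. The differences of CHAC1, SLC6A9, ATF5, ALDH1L2, PCK2, PSAT1 and SLC7A5 were called without each of the 8 libraries in turn, and the other 8 were not. IRF2 itself also differed between the guides (-1.88), and whether that difference has a part in the values of these genes was not tested.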

How the results depend on the processing

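The count of called members depends on the variance model and on single libraries. Without the mean-variance trend 0 members were called in every comparison except sg1-IRF2 against untransduced, where 3 were. For both guides against sgAAVS1 the count of 1 became 2 with no filter on low values, and 0 with array weights or with only the groups compared. For sg1-IRF2 against sgAAVS1 the count of 0 became 1 without alignment and 1 with no filter. With only the groups compared, sg2-IRF2 against sgAAVS1 had 6 calls, both guides against untransduced 13, and sg2-IRF2 against untransduced 2, and the last also had 2 with no filter. Without alignment sg1-IRF2 against sg2-IRF2 had 33 calls, the added ones in a scale whose median is shifted by 0.11. Leaving out 1 library gave 0 to 5 calls for both guides against sgAAVS1, 0 to 2 for sg1-IRF2 against sgAAVS1, 2 to 16 for sg2-IRF2 against sgAAVS1, 8 to 21 for sg1-IRF2 against sg2-IRF2, 4 to 20 for sgAAVS1 against untransduced, 2 to 13 for both guides against untransduced, 9 to 27 for sg1-IRF2 against untransduced and 0 to 1 for sg2-IRF2 against untransduced. In each comparison save sg2-IRF2 against untransduced the highest count came without an sgAAVS1 library. Apart from the fewer libraries, the cause of these changes was not tested. Without alignment the guide difference changed sign for EIF2AK1 (0.0758, against -0.0364) and EIF2AK4 (0.0741, against -0.0381), neither called. Among 70 member results with 17 alternatives each, 961 kept their direction and side of the threshold, 226 lost the call, 1 gained it (ATF4) and these 2 reversed. With the replicate number as a block, 16 members were called in sg1-IRF2 against sg2-IRF2 and 14 in sg2-IRF2 against sgAAVS1, and none of the 70 results changed its call. The deviations of same-numbered libraries had a correlation of 0.216 for sgAAVS1 with sg1-IRF2. For the other pairs of groups it was -0.079 to 0.024, and numbers were not taken as pairs in the main fit. Low counts limit NUPR1, CHAC1 and the second CBS entry.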
